A study of Mus musculus with 45 samples.

Results

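The subcortical maternal complex was followed through its 7 genes, Nlrp5, Ooep, Tle6, Khdc3, Padi6, Zbed3 and Nlrp2, which were taken by symbol and were all found among the 26214 genes of the expression table. The study asked what the loss of the histone mark H3K36me2 does to mouse oocytes, and measured RNA in fully grown oocytes (FGOs) and in late two-cell embryos. Control females carried 1 H3f3b K36M-flox allele without Cre. K36M females carried the same allele with Gdf9-Cre, whose promoter is active in oocytes, so that their oocytes make HA-tagged histone H3.3 with lysine 36 replaced by methionine. The RNA comparison holds 3 control and 3 K36M FGO libraries, each a pool of FGOs from hybrid C57BL/6 / 129 females of 3 to 4 weeks. It also holds single embryos from superovulated females of these genotypes, fertilized in vitro with JF-1 sperm and harvested 31 to 32 h later (n = 7 control and n = 8 K36M oocyte-derived). The paper expects both H3f3b+/+ and H3f3b K36M/+ offspring from K36M females with wild-type males, and the sample titles do not separate them. Genotype in embryos therefore means that of the mother. Control two-cell replicate 4 was left out because of a technical problem recorded for it. The embryos differ from the FGOs also in pooling, in the amount of cDNA amplification, in sequencing depth, which was lower for every embryo by the library totals of the study, and in the paternal genome, which cannot be told apart from stage. The labels do not say which samples share a mother, so the p-values measure only the spread between these samples.

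The complex is an assembly of proteins beneath the oocyte cortex that oocytes make during growth and pass on to the early embryo. NLRP5 (also called MATER), OOEP (FLOPED) and TLE6 form its core, and embryos of females that lack any of these genes stop at early cleavage. KHDC3 (FILIA) binds the core and has been tied to chromosome stability. NLRP2 is a relative of NLRP5 that associates with the core. PADI6 is needed for the cytoplasmic lattices of the oocyte, and ZBED3 has been tied to the position of the spindle. The mRNAs of such maternal genes are in general made before ovulation and broken down around the time when the embryonic genome is switched on, while the proteins last longer.

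The 7 genes lie on 5 chromosomes of GRCm38.p6, the assembly of mm10 that the authors used. Nlrp5 (chr7:23385889-23441923, plus strand) and Nlrp2 (chr7:5298547-5351035, minus strand) lie on chromosome 7. Khdc3 (chr9:73101381-73106631, plus strand) and Ooep (chr9:78376903-78378588, minus strand) lie 5270271 bases apart on chromosome 9. Tle6 (chr10:81590904-81601185, minus strand), Padi6 (chr4:140727355-140742643, minus strand) and Zbed3 (chr13:95323605-95337842, plus strand) each lie alone. Tle6 shares 1678 bases with Tle2, Zbed3 overlaps the small nucleolar RNA gene Snora47, and Nlrp2 overlaps Gm5065. The strand setting of the authors' counting is not given in the sources used here, so reads of overlapping genes may have been split or lost. Tle2 had a mean TPM (transcript abundance scaled to gene length and to a sum of 1000000 per library) of 1.18 in control FGOs, against 1717 for Tle6. Gm5065 had a mean of 119.9 TPM there, which is not small beside 500.2 for Nlrp2, and Snora47 had 217.7 TPM, against 8234 for Zbed3.

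The 7 genes are abundant together in FGOs, so the bases before their RefSeq starts were compared for shared letters. The E-box (CANNTG), the class of site bound by the oocyte factor FIGLA and its relatives, was found on either strand within 250 bases before the start of 6 of the 7 genes and of 63.5% of all 19526 promoters searched, taking for each gene the farthest upstream of the starts in the promoter table, which can lie inside the annotated gene. Nlrp2 had none. Ooep, Khdc3 and Padi6 each had an E-box from base 78 to base 73 before the start, where 0.466% of all promoters have one. This position was noticed after the sequences were seen and is a description only. It was CACTTG in Ooep, CAGGTG in Khdc3 and CACCTG in Padi6, and CAGGTG and CACCTG are the same site read on opposite strands. The windows of Ooep and Padi6 are shown with the E-box in capitals, and that of Zbed3 is shown beside them because its E-boxes lie farther from the start than 120 bases. The Khdc3 window is not shown because it lies in the first exon of a longer predicted transcript. All are from RefSeq for GRCm38.p6, and each is written 5′ to 3′ on the strand of its gene.
Ooep, chr9:78378589-78378708, minus strand: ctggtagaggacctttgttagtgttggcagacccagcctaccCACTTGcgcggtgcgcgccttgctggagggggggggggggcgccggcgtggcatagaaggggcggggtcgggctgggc
Padi6, chr4:140742644-140742763, minus strand: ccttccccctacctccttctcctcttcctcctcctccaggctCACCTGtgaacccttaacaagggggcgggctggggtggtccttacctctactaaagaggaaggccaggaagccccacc
Zbed3, chr13:95323485-95323604, plus strand: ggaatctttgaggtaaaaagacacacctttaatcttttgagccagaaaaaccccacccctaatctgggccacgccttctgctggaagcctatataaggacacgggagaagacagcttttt

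Of the forms of the E-box searched, CACGTG occurred in 1 of the 7 genes (Tle6, with 2 copies) and in 6.73% of all promoters. CAGGTG or CACCTG occurred in 3 of the 7 genes (Khdc3, Padi6 and Zbed3) and in 16.7% of all promoters. Among the homeobox cores, TAATTG occurred in 1 gene (Ooep) and in 6.52% of all promoters, and TAATTA in 1 gene (Nlrp5) and in 4.42%. The exact letters TATAAA occurred in 0 of the 7 genes and in 12.1% of all promoters, and variants of the TATA element were not searched. These letters overlap by construction, since each form of the E-box also counts as CANNTG.

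The FGO libraries carried oocyte markers throughout. The summed TPM of 9 oocyte markers was 15250 to 15292 in control FGOs, 13282 to 14519 in K36M FGOs and 508 to 1821 in the 15 embryos. Every K36M FGO library lay below every control one in this sum, but its members went both ways. Zp1, Zp2, Zp3, Bmp15 and Oosp1 were lower and Mos higher without overlap, Gdf9, the largest, differed by -0.017, and Nobox by 0.25 (log2 scale), and limma called 0 of them. The 8 zygotic transcripts of the late two-cell embryo, among them Zscan4d and Zfp352, summed to 34.5 to 73.9 TPM in FGOs and to 270.4 to 2440 TPM in embryos. The 10 granulosa markers summed to 131.6 to 152.6 TPM in control and 142.9 to 217.7 TPM in K36M FGOs, with 0 of 10 listed at 0 in any of these libraries. Nr5a2 was the largest part of it, at 71.0 and 117.8 TPM on average, followed by Cyp19a1 at 25.1 and 24.9 TPM, while Inha was at 10.8 and 9.68 TPM and Fshr at 2.06 and 1.56 TPM. The 6 stroma markers summed to at most 9.18 TPM and the 6 blood markers to at most 8.32 TPM in FGOs. In the embryos the granulosa sum was 77.8 to 423.9 TPM, with Nr5a2 at 174.1 TPM of a mean sum of 210.9 TPM in control and 200.8 of 235.6 TPM in K36M oocyte-derived embryos. The stroma sum there was 2.47 to 57.4 TPM and the blood sum 0 to 59.5 TPM. In pools of FGOs, fewer oocytes and less RNA per oocyte cannot be told apart. H3f3b, the gene of the K36M allele, had a mean of 293.1 TPM (SD 24.6) in the 3 control FGO libraries and 398.1 TPM (SD 20.8) in the 3 K36M ones. Its groups did not overlap, but the difference did not pass the test (limma, adjusted p = 0.281), and the table does not separate its alleles.

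In control FGOs the 7 genes were among the most abundant of all. Zbed3 had the highest TPM of any gene in each of the 6 FGO libraries. It was followed by Padi6 at rank 6 to 8 in the control libraries, by Nlrp5 and Tle6 between ranks 33 and 40, by Ooep at rank 88 to 141 and Khdc3 at rank 107 to 169, and last by Nlrp2 at rank 258 to 301. Mean TPM ran from 8234 ± 566 for Zbed3 and 3927 ± 183 for Padi6 to 1805 ± 96.2 for Nlrp5, 1717 ± 76.6 for Tle6, 893.1 ± 112.6 for Ooep, 775.7 ± 98.7 for Khdc3 and 500.2 ± 28.2 for Nlrp2 (SD, n = 3). In this order the ranges of Nlrp5 and Tle6 overlapped, as did those of Ooep and Khdc3, and the other neighbours were apart. Together the 7 genes took 1.73 to 1.87% of all TPM in control FGOs, of which Zbed3 alone was 44.2 to 47.2%.

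**Figure D1:**
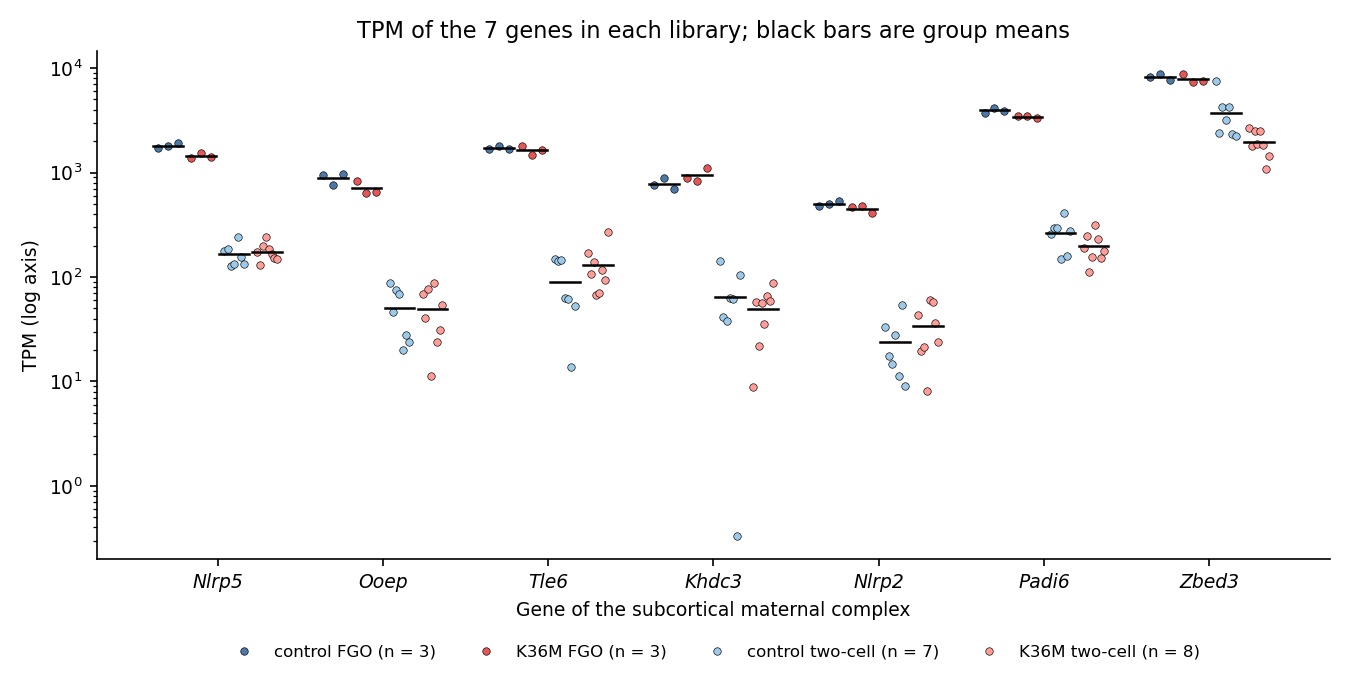
TPM of each gene of the complex on a log axis, with 1 point per library, colours for the 4 groups and black bars for group means. In all 7 genes the FGO points lie above every embryo of the same genotype, and Zbed3 is the highest gene in every group.

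Relatives of these genes stood at other levels in the same control FGOs. Padi1, Padi2, Padi3 and Padi4, the other enzymes of the peptidylarginine deiminase family, had means of 3.34, 2.28, 0.331 and 5.14 TPM, against 3927 for Padi6. Tle3, a Groucho co-repressor related to Tle6, was at 0.115 TPM, and Tle4 was the highest of that family after Tle6, at 80.0 TPM. Among the Khdc1 genes and Dppa5a, which share a KH domain fold with Khdc3 and Ooep, Khdc1b was the highest at 1402 TPM, which was above Khdc3 itself. Khdc1a, Khdc1b and Khdc1c are close copies, and their values are uncertain because reads could be shared between them. Zbed4, Zbed5 and Zbed6 ranged from 1.78 to 20.2 TPM.

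The comparison of K36M with control FGOs addresses whether the oocytes' own store of these mRNAs differed. None of the 7 genes passed the adjusted threshold of 0.05 (limma on log2(TPM + 1), adjusted p = 0.306 to 0.786), in a comparison that called 0.00726% of the 13775 genes tested. The study tested counts with edgeR and called more genes in this comparison than limma on TPM did here. Nlrp5 had 1717, 1790 and 1908 TPM in the control and 1379, 1526 and 1423 TPM in the K36M libraries. Every K36M library lay below every control library, and the difference was -0.32 on the log2 scale (standard error 0.07, unadjusted p = 0.00105, limma adjusted p = 0.306). Padi6 had 3750, 4114 and 3916 TPM in the control and 3439, 3504 and 3359 TPM in the K36M libraries. These groups did not overlap either, with a difference of -0.19 (standard error 0.06, limma adjusted p = 0.383).

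Ooep, the third of the core genes with Nlrp5 and Tle6, had 956.0, 763.1 and 960.3 TPM in control and 836.8, 639.3 and 646.7 TPM in K36M FGOs. Its groups overlapped through control replicate 2 and K36M replicate 1 (log2 difference -0.34, standard error 0.13, limma adjusted p = 0.428). Tle6 had 1683, 1805 and 1664 TPM against 1810, 1470 and 1646 TPM, and its difference of -0.07 was smaller than its standard error of 0.08. Khdc3 was the only one of the 7 with a higher mean in K36M FGOs, at 880.4, 830.2 and 1115 TPM against 754.7, 883.3 and 689.2 TPM (log2 difference 0.28, standard error 0.13, limma adjusted p = 0.485). Zbed3 had 8694, 7413 and 7448 TPM against 8235, 8800 and 7667 TPM, and Nlrp2 had 465.5, 475.1 and 411.6 TPM against 473.0, 498.4 and 529.3 TPM, with differences of -0.07 and -0.15. In both genes the groups overlapped.

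Of the 7 genes, 3 had an unadjusted p under 0.05, beside 10.5% of all genes, and 2 were without overlap between the groups, beside 15.6% of all genes. Their median difference was -0.15, and that of all genes tested was 0.013. The 11 other maternal genes had a median of -0.093, with 8 negative, 5 lower and 2 higher without overlap, and 0 called (limma). The oocyte marker list shares genes with this one, among them Zp1, Zp2, Zp3, Bmp15 and Oosp1, the 5 lower without overlap. The oocyte marker sum was lower in all K36M FGO libraries, and its part in the differences of the 7 genes was not tested. Over 14 alternatives the difference of Nlrp5 ranged from -0.36 to -0.24 and its adjusted p from 0.0704 to 0.712, and that of Padi6 from -0.23 to -0.099 and 0.138 to 0.712. The adjusted p of Ooep ranged from 0.0619 to 0.722. Removal of K36M FGO replicate 1 raised the number of genes called in the whole table from 1 to 300, and still called none of the 7.

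Proteins that have been found with the complex or in the oocyte lattices were described in the same way. Uhrf1, Ube2d3 and Skp1 encode proteins of the ubiquitin system, Nlrp14 and Nlrp4f other NLRP proteins, and Cfl1 encodes the actin-severing protein cofilin. None of these 6 genes passed the adjusted threshold in FGOs (limma, adjusted p = 0.365 to 0.995). All 6 had a lower mean log2 value in K36M FGOs, with a median difference of -0.17, and 4 were without overlap. Of all genes tested, 47.9% had a negative difference and 15.6% were without overlap in either direction. Nlrp14 had a mean of 2922 TPM in control and 2320 TPM in K36M FGOs, a log2 difference of -0.34, and Ube2d3 a difference of -0.23. Their comparison shares its libraries with that of the 7 genes.

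In two-cell embryos all 7 genes fell from their FGO level, Zbed3 to 3737 from 8234 TPM on average in control and the other 6 genes by more than 3 log2 units in each genotype. Every embryo lay below every FGO library of its genotype for all 7 genes in both genotypes. The test called 7 of 7 lower in control embryos, beside 13.2% of all genes called lower, and 7 of 7 in K36M oocyte-derived embryos, beside 18.6%. The genes without overlap that were lower in embryos made up 18.2% and 17.2% of all genes. The median difference of the 7 genes was -4.31 in control and -3.92 in K36M, on the log2 scale, and that of all genes was 0.002 and -0.18.

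**Figure D2:**
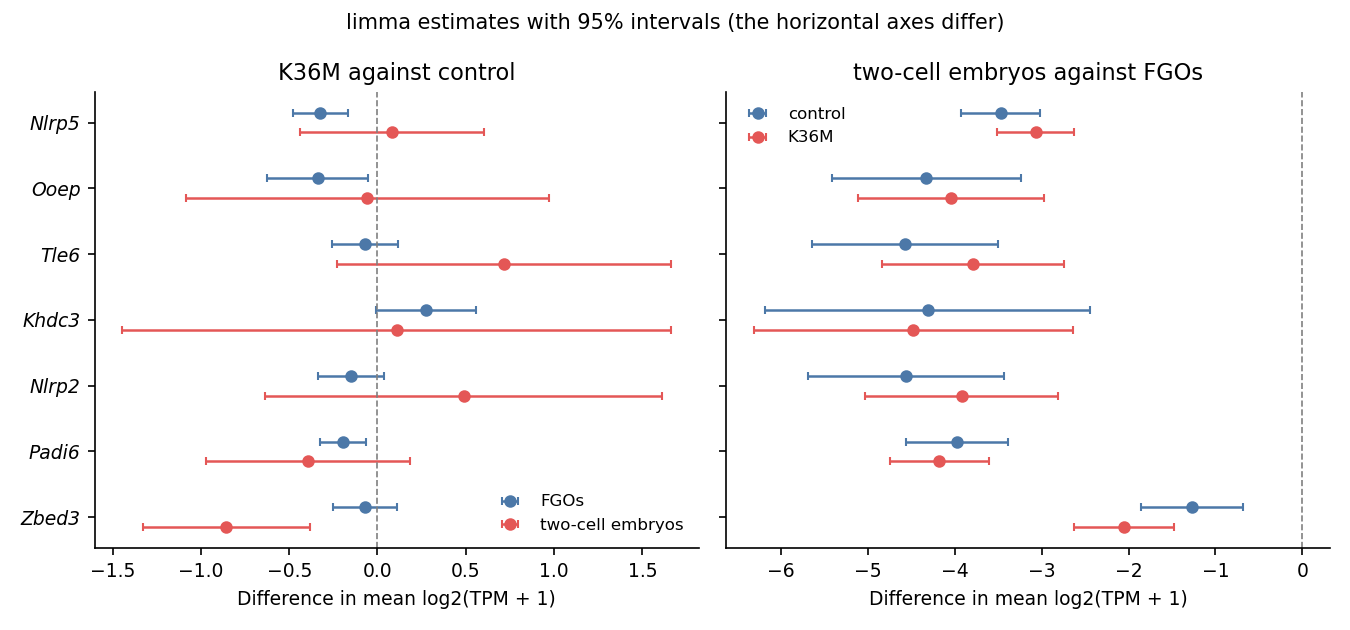
Differences in mean log2(TPM + 1) with 95% intervals from limma for each gene, K36M against control on the left and two-cell embryos against FGOs on the right. On the right all 14 intervals lie below 0 and those of Zbed3 lie nearest to it, and on the left the interval of Zbed3 in embryos, from -1.33 to -0.38, lies below 0 although its adjusted p is 0.377.

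Among the core genes, Nlrp5 had a lowest, median and highest value of 126.1, 156.0 and 241.8 TPM in control embryos. Its difference from FGOs was -3.47 (standard error 0.22, limma adjusted p = 2.3e-11), and with 130.8, 170.2 and 239.5 TPM in K36M oocyte-derived embryos the difference there was -3.07. It was the most even of the 7 genes, with a coefficient of variation of 24.7% and 19.4% between embryos. Ooep had 19.995, 46.0 and 87.9 TPM in control and 11.2, 47.3 and 88.0 TPM in K36M oocyte-derived embryos, differences from FGOs of -4.33 and -4.04. Tle6 had 13.7, 62.3 and 149.8 TPM in control and 67.5, 111.7 and 267.0 TPM in K36M oocyte-derived embryos, and fell by 4.58 and 3.79 on the log2 scale.

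Khdc3 had the highest coefficient of variation in control embryos, 72.6%, but not in K36M oocyte-derived embryos, where it was 51.9% and that of Nlrp2 56.1%. Its values were 0.334, 61.8 and 143.1 TPM in control embryos and 8.75, 56.4 and 87.1 TPM in K36M oocyte-derived embryos. Its difference from FGOs of -4.31 in control embryos carried a standard error of 0.91 (limma adjusted p = 9.79e-04), and that in K36M was -4.48. Without control replicate 7, at 0.334 TPM, the control difference was -3.50 (limma adjusted p = 3.58e-05). Nlrp2, the least abundant, had 8.97, 17.5 and 54.1 TPM in control and 8.12, 30.1 and 60.7 TPM in K36M oocyte-derived embryos, differences from FGOs of -4.56 and -3.92. Padi6 had 147.9, 276.0 and 407.9 TPM in control and 111.2, 184.8 and 313.1 TPM in K36M oocyte-derived embryos, differences from FGOs of -3.98 and -4.18.

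Zbed3 fell the least. It had 2233, 3213 and 7555 TPM in control embryos, a difference from FGOs of -1.27 (standard error 0.28, limma adjusted p = 0.00175), and 1082, 1867 and 2665 TPM in K36M oocyte-derived embryos, a difference from FGOs of -2.05 (standard error 0.28, limma adjusted p = 5.1e-06). It was still at rank 2 to 8 of all genes in control and rank 6 to 55 in K36M oocyte-derived embryos, whereas Padi6, the next of the 7, was at rank 432 to 1840 and 713 to 2360. The 95% interval of its difference in control embryos, -1.86 to -0.68, lay apart from those of the other 6 genes, of which the nearest bound was -2.44 for Khdc3. In K36M its interval, -2.63 to -1.48, overlapped that of Nlrp5, -3.51 to -2.62. Snora47, which overlaps Zbed3, had means of 657.9 TPM in control and 520.3 TPM in K36M oocyte-derived embryos, and its part in the level of Zbed3 there was not tested. Below Zbed3, the ranges of all neighbours in the order of the 7 genes overlapped in embryos of both genotypes.

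The unequal falls changed the make-up of the group. The 7 genes together took 0.272 to 0.841% of all TPM in control embryos (median 0.372%) and 0.160 to 0.332% in K36M oocyte-derived embryos (median 0.247%). Zbed3 was 76.8 to 89.9% of that sum in control and 65.3 to 81.5% in K36M oocyte-derived embryos. Without Zbed3 the other 6 genes took 0.0412 to 0.0851% and 0.0522 to 0.0760% of all TPM, ranges of which the second lies inside the first. A lower share of TPM does not say whether an embryo holds fewer copies of these mRNAs or more of others.

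**Figure D3:**
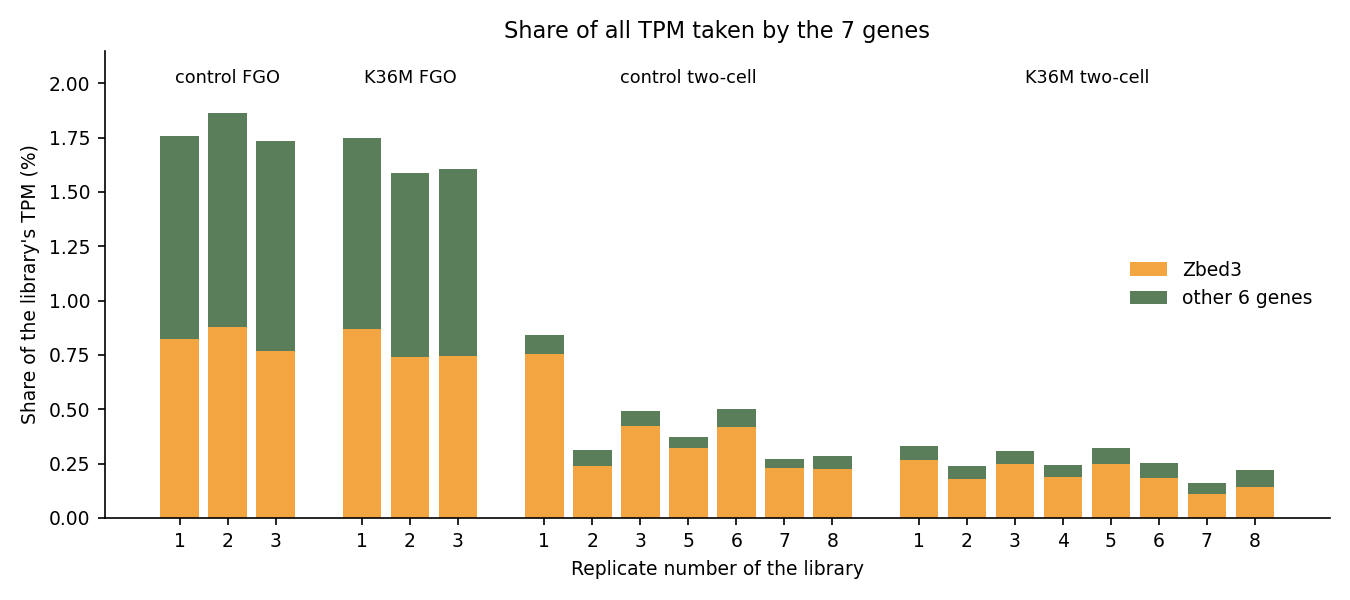
Share of all TPM in each library taken by Zbed3 (orange) and by the other 6 genes (green), stacked, with 1 bar per library. FGO bars reach 1.59 to 1.87% and are split nearly evenly, and embryo bars reach 0.160 to 0.841% and are mostly Zbed3.

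Other maternal transcripts served as a reference for these falls. Of 11 maternal genes with other tasks, 11 were called lower in embryos of each genotype, with medians of -3.79 in control and -4.04 in K36M. They ranged in control embryos from -0.86 for Dppa3, which protects the maternal genome from demethylation, and -1.78 for Btg4, an adaptor for mRNA decay, to -5.65 for Mos, the kinase that holds the egg in meiotic arrest. The falls of the 7 genes lay within that range. Of the 6 partner genes, 5 fell in each genotype, among them Nlrp4f (-3.66 in control) and Nlrp14 (-3.59), whereas the difference of Cfl1 was -0.33 and did not pass the test (limma adjusted p = 0.381).

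The relatives went both ways. Of 16, 1 was called lower (Padi1, -1.58, from 3.34 TPM) and 2 higher (Tle3, 6.80, and Zbed6, 4.197) in control embryos, and 3 lower and 4 higher in K36M oocyte-derived embryos. Of all genes, 13.4% were called higher in control and 10.8% in K36M oocyte-derived embryos. Those called lower in K36M were Dppa5a (-2.61), Padi1 (-1.96) and Khdc1b (-0.76), and those called higher were Tle3 (5.68), Zbed6 (5.21), Padi3 (2.51) and Khdc1c (1.39). Tle3 stood at a mean of 125.4 TPM in control embryos, against 89.7 TPM for Tle6, with overlapping ranges. In K36M oocyte-derived embryos the order was the reverse, at 77.3 TPM for Tle3 and 129.0 TPM for Tle6. In control FGOs Tle6 had been at 1717 TPM and Tle3 at 0.115 TPM. Dppa5a lies 8703 bases from Ooep, and its difference in control embryos was -1.16 (limma adjusted p = 0.352), against -4.33 for Ooep.

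Of the genes called in the comparison of control stages, 49.7% were lower in embryos, and 61.4% were after median-of-ratios scaling. That scaling moved the median of all genes from 0.002 to -0.17. Over 19 alternatives the difference of Zbed3 in control embryos ranged from -1.77 to -0.97 and those of the other 6 genes from -4.89 to -3.14, and all 7 were called in each.

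Embryos differed far more from each other than FGO libraries did. The median coefficient of variation of the 7 genes was 5.63% in control and 9.29% in K36M FGOs, and 54.8% and 50.8% in the embryos. The 11 other maternal genes had medians of 5.12%, 7.19%, 55.2% and 58.1% in the same order. Each FGO library averages several oocytes and each embryo library is 1 embryo with more amplification, so biological and technical spread cannot be told apart here.

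Comparison of K36M oocyte-derived with control embryos called none of the 7 genes (limma, adjusted p = 0.377 to 0.979), and 0% of the 17362 genes tested. Of the 7 genes, 1 had an unadjusted p under 0.05, beside 7.71% of all genes, and that gene was Zbed3. Its level was above the highest K36M oocyte-derived embryo, at 2665 TPM, in control replicates 1, 3, 5 and 6, and inside their range in replicates 2, 7 and 8. The difference was -0.86 (standard error 0.23, unadjusted p = 0.00105, limma adjusted p = 0.377), and it ranged from -1.02 to -0.66 over 24 alternatives with adjusted p from 0.234 to 0.715. The K36M oocyte-derived embryos also had fewer genes above 0, 10894 to 14879 against 12115 to 17329 in control, and the part of this in the difference was not tested. The median of all genes was itself -0.26 in this comparison, and -0.036 after quantile normalization, under which the difference of Zbed3 was -0.88.

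The other 6 genes overlapped widely between the genotypes. Differences were 0.08 for Nlrp5 (95% interval -0.44 to 0.60), -0.06 for Ooep (-1.08 to 0.97) and 0.72 for Tle6 (-0.23 to 1.66) in the core. They were 0.11 for Khdc3 (-1.44 to 1.66), 0.49 for Nlrp2 (-0.63 to 1.61) and -0.39 for Padi6 (-0.97 to 0.18). The intervals of Tle6, Khdc3, Nlrp2 and Ooep include differences of more than 1 log2 unit. Values for Khdc3 and Tle6 rest in part on control replicate 7, and without it the difference became -0.70 for Khdc3 and 0.33 for Tle6. The 7 genes had a median of 0.083.

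Whether the fall from FGO to embryo differed between the genotypes was tested by the genotype-by-stage interaction. None of the 7 genes passed (limma, adjusted p = 0.99995 for all), and 0% of all genes did. At an unadjusted p under 0.05 there were 0 of the 7 genes and 1.15% of all genes. The fit takes the same variance for FGO pools and single embryos, whose spreads differ, so it may miss differences. With array weights 1781 genes were under 0.05 unadjusted, against 199 here, and 0 of the 7 passed the adjusted threshold. Zbed3 had the smallest unadjusted p of the 7, at 0.0605, with an interaction of -0.79 (standard error 0.40), that is, -2.05 from FGO to embryo in K36M against -1.27 in control.

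A ratio of 2 genes within a library depends little on the scaling of the library, except at low TPM, where the added 1 pulls it toward 0. The log2 ratio of Ooep to Nlrp5, each as TPM + 1, averaged -1.02 (SD 0.19) over the 3 control FGO libraries and -1.04 (SD 0.28) over the 3 K36M ones. In embryos it was -1.87 ± 1.02 in control (n = 7) and -2.01 ± 1.08 in K36M oocyte-derived embryos (n = 8). The ratio of Tle6 to Nlrp5 was -0.071 ± 0.11 and 0.18 ± 0.22 in FGOs, and -1.18 ± 1.22 and -0.54 ± 0.81 in embryos. None of the 8 comparisons of these ratios, by genotype and by stage, passed the two-sided exact permutation test (adjusted p = 0.4 to 0.9). With 3 libraries against 3, the smallest p that this test can give is 0.1.

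The same ratio to Nlrp5 was then taken for all 6 other genes, in a family of 24 tests that holds the 8 above and was widened after the values had been seen. The ratio of Zbed3 to Nlrp5 was 2.19 ± 0.16 in control FGOs and 4.39 ± 0.64 in control embryos, a difference of 2.204, and 2.44 ± 0.19 and 3.45 ± 0.40 in K36M, a difference of 1.01. In both genotypes all embryos lay above all FGO libraries, and the two-sided exact permutation p of 0.00833 and 0.00606 is the smallest that these group sizes allow (adjusted p = 0.0667 for both). Between the genotypes, the embryos' ratio of Zbed3 to Nlrp5 differed by -0.94 in K36M from control (two-sided exact permutation p = 0.00186, adjusted p = 0.0448), with ranges of 2.84 to 3.93 in K36M and 3.68 to 5.39 in control. Of the 24 tests it alone passed after adjustment, and 4 fell under 0.05 before it. On removal of single embryos the difference stayed between -1.06 and -0.77, and its adjusted p (exact permutation) was 0.016 to 0.0727. It stayed under 0.05 only without control replicate 2, control replicate 7 or K36M replicate 1, and removal of any one of the other 12 embryos took it above 0.05, to 0.0667 to 0.0727. With control replicate 4 added, the adjusted p (exact permutation) was 0.0298 for this difference and 0.0485 for the stage difference of the same ratio in control, which then passed.

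**Figure D4:**
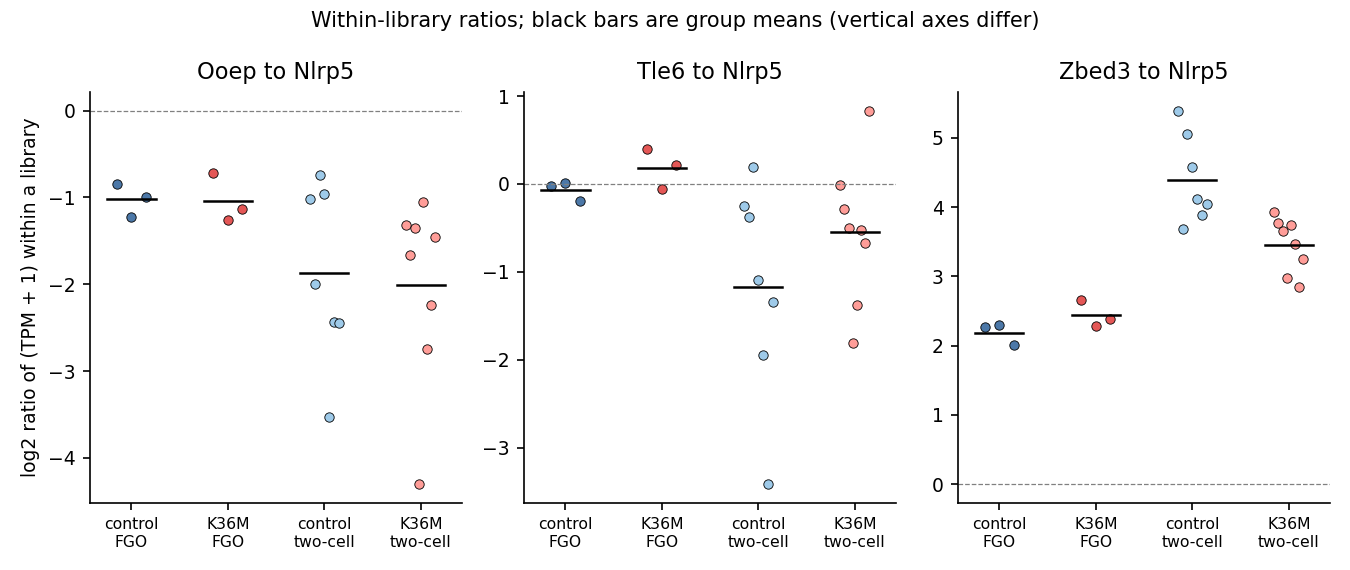
Log2 ratio of (TPM + 1) within each library for Ooep, Tle6 and Zbed3 to Nlrp5, with 1 point per library and black bars for group means. Ratios of the core genes spread widely in embryos, and the ratio of Zbed3 to Nlrp5 is 2.01 to 2.66 in FGOs and 2.84 to 5.39 in embryos.

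Across the 15 embryos the correlations between the 7 genes were of mixed sign. Taken as deviations from the mean of each genotype, 12 of the 21 pairs of genes had a positive Pearson correlation, with a range of -0.43 to 0.56 and a median of 0.14. The highest, 0.56 between Tle6 and Khdc3 (Spearman 0.24), became -0.22 without the 2 embryos farthest from the median. Nlrp5 and Ooep, both of the core, had -0.34. These points share their libraries, biological and technical spread cannot be told apart in them, and the correlations are descriptions.

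The genes whose pattern over the 15 embryos was most like the mean pattern of the 7 were sought among 17355 genes. They were Dot1l (Pearson 0.88, Spearman 0.84), Myo5b (0.87 and 0.79), Rab4a (0.85 and 0.85), Tet3 (0.85 and 0.73) and Rbpms2 (0.84 and 0.78). Dot1l encodes the H3K79 methyltransferase, Tet3 the dioxygenase that oxidizes methylcytosine in the zygote, Myo5b a myosin motor, Rab4a an endosomal GTPase and Rbpms2 an RNA-binding protein. Without the 2 embryos farthest from the median, the Pearson correlations were 0.74, 0.69, 0.80, 0.63 and 0.54 in that order. These genes were picked as the highest of 17355 correlations over 15 embryos, and such a choice alone gives high values. Their likeness to the 7 genes is a description and was not tested.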

How the data were processed

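RNA-seq libraries of 6 FGO pools and 16 single two-cell embryos, out of 45 samples of the series, were analysed. Trimming (Trim Galore!), mapping to mm10 (HISAT2), removal of rRNA reads (bedtools) and counting per gene (featureCounts) were done by the authors, who deposited TPM values. The annotation, gene lengths and strand setting are not given in the sources used here. The counts behind single genes cannot be recovered from TPM, and no counting interval is given.

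With limma 3.58.1 (R 4.3.3) and a mean-variance trend, linear models of log2(TPM + 1) were fitted to genes whose mean TPM reached 1, with Benjamini-Hochberg adjustment over all genes tested and a threshold of 0.05. FGOs and embryos were fitted apart for genotype, and 1 fit of 4 groups over 21 libraries gave the stage contrasts and the interaction. Intervals use the t quantile of the moderated fit. Ratios were compared by two-sided exact permutation. The scripts were tested on simulated data. The alternatives were a pseudocount of 0.1, other filters, 2 other scalings, no trend, array weights, a replicate block, libraries left out and control two-cell replicate 4 added. Leaving out single embryos was added after the values were seen. The 7 genes, the partner, relative, maternal and marker lists and the motifs were chosen with earlier results of these data known. Named genes are those lists, H3f3b and the 5 most similar genes, and overlapping genes were added after the values were seen. Promoters came from RefSeq, in which all 7 genes were found. Python 3.11.15, numpy 2.4.6, pandas 2.3.3 and matplotlib 3.10.9 were also used. The bisulfite, ChIP-seq and CUT&RUN data were not analysed here.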

Additional observations from a re-analysis of the deposited data

Results flagged for a closer look

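In control two-cell replicate 7, Khdc3 had a log2(TPM + 1) of 0.416, far below the other 6 control embryos, and the gap to the nearest of them was 0.718 of the whole range. It was the only such value in 18 comparisons within groups, and chance gives about 1 in 20. The same embryo also had the lowest Tle6 of the control embryos, at 13.7 TPM, and the highest Nlrp2, at 54.1 TPM. As a library it had the fewest genes above 0 of the control embryos, 12115, and their lowest oocyte marker sum, 514.8 TPM. The part of this in its Khdc3 value was not tested.

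Among the samples kept out of the comparisons, control two-cell replicate 4 lay above the other 7 control embryos in 3 of the 7 genes. It had 267.1 TPM of Nlrp5 (highest of the others 241.8), 233.4 TPM of Ooep (87.9) and 8347 TPM of Zbed3 (7555). Tle6, Khdc3, Padi6 and Nlrp2 lay inside the range of the others.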

How the results depend on the processing

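The number of the 7 genes called was the same in all 91 alternatives, 0 for the genotype comparisons and the interaction and 7 for each stage comparison. Differences that turned sign were all far from the threshold, and their cause was not tested. In FGOs, Tle6 ranged from -0.14 to 0.0080 with libraries left out. In embryos, Nlrp5 became -0.0076 with control replicate 4 added. Ooep became 0.053 with quantile normalization, 0.048 with median-of-ratios scaling and 0.20 with the replicate block, and was -0.24 to 0.20 with embryos left out. Khdc3 became -0.084 with array weights and was -0.70 to 0.42 with embryos left out. In the interaction, Ooep became -0.035 with array weights and -0.019 with replicate 4 added, and Khdc3 0.041 with a pseudocount of 0.1 and 0.088 with replicate 4 added. The FGO difference in the ratio of Ooep to Nlrp5 was -0.17 to 0.093 with libraries left out.

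Counts over all genes moved more than those of the 7 genes. In FGOs, 0 to 300 genes were called with libraries left out and 0 with a pseudocount of 0.1, all genes above 0, no trend or the replicate block, against 1. In embryos, 5 were called with no trend and 1 with array weights or without K36M replicate 8, against 0. Between stages, array weights called 9730 in control, against 4615, and 8527 in K36M, against 5094, and 2844 to 2877 were called in control with an FGO library left out. In the interaction, 13 were called with all genes above 0, 1 with no trend, 3 with array weights and 0 to 3 with libraries left out, against 0.

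Samples with the same replicate number did not deviate together (correlations of 0.015 to 0.10 in FGOs and -0.10 to 0.097 in embryos), so the numbers were not taken as pairs. The replicate block left the calls of the 7 genes as they were. In embryos it sets aside K36M replicate 4, which has no control partner.

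The counts behind single genes cannot be recovered from TPM, and 3 libraries per FGO group and single embryos limit what can be called. Zbed3 in embryos and Nlrp5, Ooep and Padi6 in FGOs had intervals apart from 0 and did not pass the adjustment over all genes. Zbed3 is the top gene of every FGO library, so quantile normalization sets its FGO difference to 0.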
